A study of Mus musculus with 32 samples.

Results

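Brachiocephalic arteries with atherosclerotic lesions were compared between 4 libraries of Oct4 -/- mice (KO) and 4 of wild-type mice (WT). These 8 libraries were all those whose titles give "in vivo" and a genotype, out of 32 in the series, and the other 24 were of cultured primary smooth muscle cells. The animals of all 8 libraries were of the C57BL/6 strain by their labels and were fed a Western diet for 18 weeks. The brachiocephalic artery was frozen and its total RNA extracted with Trizol, so a library holds the RNA of every cell type of the vessel and of any tissue left on it. The labels do not say whether a library is 1 animal or a pool, and p-values measure only the spread between these libraries. The labels do not say which cells lost Oct4, how the deletion was made, or whether the animals lacked another gene. The published study describes a deletion restricted to smooth muscle cells on an Apoe-deficient background, which the labels used here do not state. The question of the comparison was how the lesion differs when Oct4, encoded by Pou5f1, is missing.

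Oct4 is a homeodomain transcription factor that maintains pluripotency in early embryos and is silent in most adult cells. In atherosclerosis, lipoproteins held in the artery wall are taken up by macrophages, which store cholesterol esters as droplets, clear them through lysosomes and export cholesterol to lipoprotein acceptors. Smooth muscle cells of the media lose contractile proteins as they migrate into the lesion, where they make matrix and can take on features of fibroblasts, chondrocytes or macrophages. In a bulk library, fewer cells of a type and less RNA per cell cannot be told apart.

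The libraries held 6526099 to 10379807 counts in KO and 7358399 to 11137414 in WT. Expression is given in CPM, which relates each count to the TMM-adjusted total of its library, and values by library are given in the order of the replicate numbers. Pou5f1 (mm9 chr17:35642977-35647722, plus strand) had 0 counts in each KO library and 3, 0, 0 and 0 counts in WT, so its level does not check the genotype labels. Apoe was at 20.1, 24.4, 23 and 13.3 CPM in KO, against 10.5, 15.8, 13.9 and 18.6 CPM in WT. Male-specific genes such as Ddx3y were present in all 8 libraries, with 163, 189, 205 and 194 CPM in KO, against 139, 163, 173 and 156 CPM in WT. On the first principal component, which carried 57.2% of the variance, KO 4 lay at 77.65 and the other 7 libraries between -36.6 and 7.89. On the second, with 17.2%, WT 1 lay at 37.85. Over 12370 genes of at least 5 CPM, the median SD within a genotype was 0.176 (log2) in KO and 0.179 in WT, and 0.132 without KO 4 and 0.137 without WT 1. Reads outside annotated exons numbered 0.767 to 1.01 per assigned fragment in KO and 0.96 to 1.54 in WT, with KO 4 the only KO library above the lowest WT library.

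No single gene passed an FDR of 0.05 in edgeR's quasi-likelihood test (0 of 14993 genes tested, 0%), so a gene is called higher or lower below only as a description of its values. At an unadjusted p under 0.05 there were 1378 genes higher in KO (9.19% of those tested) and 838 lower (5.59%). All 4 KO libraries lay above all 4 WT libraries for 820 genes (5.47%) and below them for 500 (3.33%). DESeq2, an alternative test, called 302 of 13346 genes higher (2.26%) and 139 lower (1.04%), all of which were under p 0.05 in edgeR. The balance of directions depended on 1 library and on the scaling: 62.2% of genes under p 0.05 were higher in KO, against 44.9% without KO 4 and 40.6% when libraries were scaled by total count alone. The median log2 fold change (KO over WT) of all genes tested was -0.01. The smallest FDR, 0.0575, was shared by 3 genes, the haem oxygenase gene Hmox1, the olfactory receptor gene Olfr111 and the predicted gene Gm8801, the last of which was named after its values were seen. Genes lower in KO were longer: the median gene spanned 32.5 kb of genome where lower, against 18.3 kb where higher and 22 kb over all genes tested, and its exons came to 3916, 2401.5 and 2872 bases in the same order. This length difference and the larger number of reads outside exons in WT were both differences between the genotypes. Whether they are related, and their part in the counts above, was not tested.

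**Figure D1:**
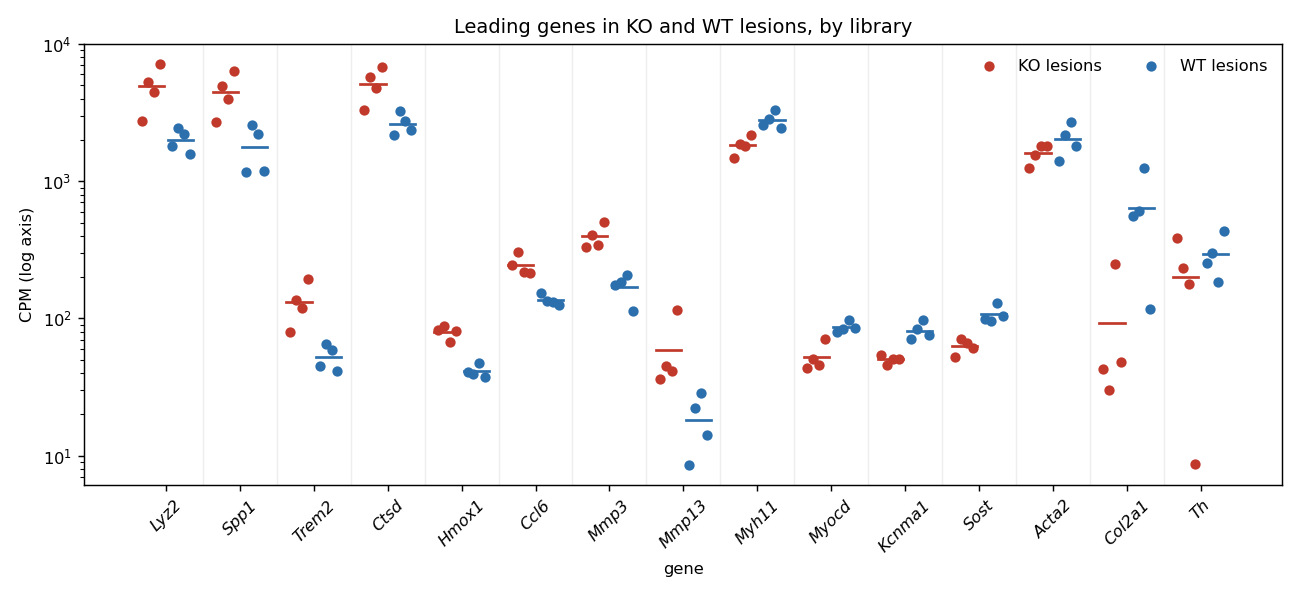
Level of 15 genes in each library (vertical axis, CPM on a log scale), with KO lesions in red left of WT lesions in blue, 4 points a group in replicate order and a bar at the mean. The macrophage genes at the left and Hmox1 lie higher in KO lesions, Myh11, Myocd, Kcnma1 and Sost lie lower, Acta2 overlaps, and Th lies at 8.66 CPM in KO 4.

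Macrophage genes were higher in KO lesions, and the foamy macrophage list had the highest median of the 38 lists examined. Of 14 genes of lipid-laden (foamy) macrophages, all 14 were higher in KO, 13 of them under p 0.05 and 5 without overlap, with a median log2 fold change of 1.09, against -0.01 over all genes tested. That median of all genes is the background of every list median given below. The background of every list count is the share over all genes tested. Under p 0.05 it was 9.19% higher and 5.59% lower, and without overlap 5.47% higher and 3.33% lower. At any p, 7301 of the 14993 genes were higher and 7692 lower. Of 19 general macrophage genes tested, all 19 were higher, 18 under p 0.05 and 8 without overlap, with a median of 0.82. DESeq2 called 12 and 13 of the 2 lists higher. In the cultured smooth muscle cells of the series, 9 of the 14 foamy genes and 4 of the 19 general macrophage genes reached a median of 1 CPM. Ctsd was at a median of 908 CPM in these cultures and Spp1 at 34.1 CPM, while Trem2 was at 0 CPM and Lyz2 at 0.0742 CPM. Which cells of the lesion gave the RNA of the foamy genes was not tested.

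Lyz2, which encodes the lysozyme of macrophages and neutrophils, was at 2750, 5263, 4502 and 7147 CPM in KO, against 1791, 2428, 2206 and 1570 CPM in WT. All KO libraries lay above all WT libraries, KO 1 least and KO 4 most, and the log2 fold change was 1.30 ± 0.28 (SE, FDR 0.17). Values of this form in parentheses below are log2 fold changes with their SE. Per length it was the most abundant coding gene of KO lesions, at 11260 ± 3922 TPM in KO and 5119 ± 953 TPM in WT (SD, n = 4 each). Spp1, the secreted matrix protein osteopontin, was at 2686, 4967, 3969 and 6335 CPM in KO, against 1165, 2555, 2222 and 1190 CPM in WT. Again KO 4 was highest and KO 1 lowest of the KO libraries, just above WT 2, with a log2 fold change of 1.33 ± 0.34 (FDR 0.172). Trem2, the lipid-sensing receptor of foamy macrophages, was at 79.7, 135, 119 and 195 CPM in KO, against 44.8, 65.4, 58.5 and 41.4 CPM in WT. The genotypes did not overlap (1.33 ± 0.27, FDR 0.17). Gpnmb, a glycoprotein of lipid-loaded macrophages, was at 1904, 4637, 3865 and 6357 CPM in KO, against 1470, 2538, 1953 and 1438 CPM in WT, where KO 1 lay below WT 2 and WT 3. The same order, KO 1, KO 3, KO 2, KO 4 from low to high, recurred for Lgals3 (galectin 3), Ctsl and Ctss (lysosomal cysteine proteases), Atp6v0d2 (a subunit of the lysosomal proton pump) and Cd68 (a lysosomal membrane protein).

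The summed level of the foamy genes was 13050, 23690, 20080 and 30570 CPM in KO, against 8253, 13530, 11350 and 8986 CPM in WT. KO 1 thus lay below WT 2, while the other 3 KO libraries lay above every WT library. The median of the list was 0.84 without KO 4 and 0.72 without KO 4 and WT 1, and at most 1.26 with any library left out. Some receptors present on most macrophages had small fold changes. The colony-stimulating factor receptor gene Csf1r was at 197, 229.6, 241 and 269.8 CPM in KO, against 172, 201, 189 and 157 CPM in WT, a log2 fold change of 0.38 ± 0.12, and the phagocytic receptor gene Mertk was at 109, 149, 129 and 210 CPM in KO, against 114, 128, 112 and 108 CPM in WT (0.37 ± 0.18, p 0.0692). For both genes the genotypes overlapped. Tyrobp, the signalling adaptor that Trem2 uses, was at 92.6, 148, 144 and 191 CPM in KO, against 61.5, 80.5, 81.6 and 59.1 CPM in WT, without overlap (1.02 ± 0.21). The 3 chains of complement C1q, made by tissue macrophages, were each without overlap, with log2 fold changes of 0.82 ± 0.21 for C1qa, 0.90 ± 0.22 for C1qb and 0.88 ± 0.21 for C1qc.

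Genes of resident-like macrophages had a lower median. Of 12, 10 were higher and 3 of these under p 0.05, with a median of 0.31. Sepp1, the selenium carrier selenoprotein P, was at 1113, 1597, 1507 and 1357 CPM in KO, against 847, 967, 978 and 935 CPM in WT, without overlap (0.58 ± 0.14). Folr2, the folate receptor of perivascular macrophages, was at 38.1, 37.5, 39.6 and 31.5 CPM in KO, against 17.5, 28.5, 27.1 and 23 CPM in WT, also without overlap (0.61 ± 0.15). In contrast to the foamy genes, KO 4 was the lowest KO library for Folr2, Lyve1, Mrc1, F13a1 and Cd163. Cd163, the haemoglobin scavenger receptor, was at 57.9, 61.3, 62.7 and 34.4 CPM in KO, against 49.4, 45, 44.1 and 52.3 CPM in WT, and the genotypes overlapped (0.18 ± 0.18, p 0.33). The median of this list was 0.46 without KO 4 and 0.18 without KO 3.

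**Figure D2:**
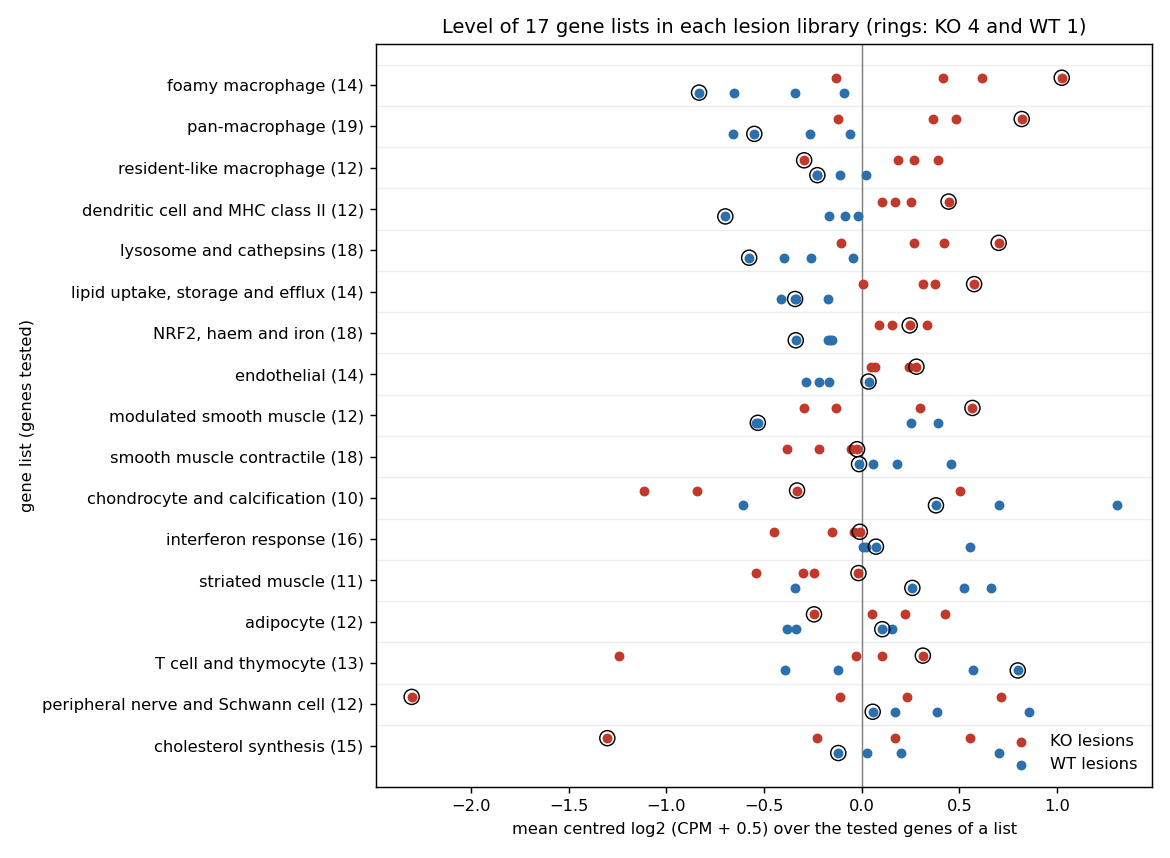
Level of 17 gene lists in each lesion library, as the mean over a list's tested genes of log2 (CPM + 0.5) centred on the 8 libraries (horizontal axis), with KO lesions in red above WT lesions in blue and rings around KO 4 and WT 1. For the foamy macrophage, pan-macrophage, lysosome and lipid lists, the KO libraries other than KO 1 lie to the right of all WT libraries. KO 1 lies within the WT range for the foamy macrophage, pan-macrophage and lysosome lists. It lies to the right of all WT libraries for the lipid list. The contractile list lies to the left in KO lesions. KO 4 lies far to the left of all others for the nerve and cholesterol synthesis lists.

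Lysosomal genes were higher in KO in 18 of 18 cases, 15 under p 0.05 and 6 without overlap, with a median of 0.68. Ctsd, the aspartic protease cathepsin D, was at 3309, 5735, 4786 and 6757 CPM in KO, against 2166, 3239, 2727 and 2370 CPM in WT, without overlap (0.97 ± 0.24). Lipa, the acid lipase that frees cholesterol from the esters of ingested lipoproteins, was at 359, 542, 495 and 718 CPM in KO, against 274, 352, 320 and 274 CPM in WT, also without overlap (0.79 ± 0.20). Npc2, which passes that cholesterol to the lysosomal membrane, was at 353, 503, 461 and 586 CPM in KO, against 288, 352, 329 and 297 CPM in WT. The lowest KO value was just above the highest WT value (0.59 ± 0.16). Tfeb, the transcription factor that drives lysosomal genes, was at 18.1, 25.2, 20.3 and 33.7 CPM in KO, against 26, 24.8, 24.4 and 19.4 CPM in WT. Its values overlapped and its log2 fold change was 0.04 ± 0.19 (p 0.822). The ubiquitous pump subunits Atp6v0d1 (0.11 ± 0.16) and Atp6v1b2 (0.29 ± 0.15) overlapped as well. 3 of the 18 genes (Ctsd, Ctsl and Ctss) also stood in a macrophage list, so the lists are not independent. In the cultured smooth muscle cells, 17 of the 18 genes reached a median of 1 CPM.

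Genes for the uptake, storage and efflux of lipid were higher in 14 of 14 cases, 12 under p 0.05, with a median of 0.62. Their summed level was 7400, 9419, 9313 and 10200 CPM in KO, against 6223, 6180, 5434 and 6178 CPM in WT, without overlap. The acyltransferase gene Soat1, whose product esterifies cholesterol for storage, was at 156, 225, 205 and 308 CPM in KO, against 110.1, 165, 139 and 119.7 CPM in WT (0.74 ± 0.21). Only KO 1 lay within the range of WT. The exporters Abca1 (0.64 ± 0.20) and Abcg1 (0.76 ± 0.23) were higher as well, with KO 1 inside the WT range for each. Of regulators of these genes, the liver X receptor gene Nr1h3 (0.30 ± 0.14, p 0.0628) and Pparg (0.12 ± 0.16, p 0.493) overlapped between genotypes. Pla2g7, which encodes the lipoprotein-associated phospholipase that hydrolyses oxidized phospholipids, was among the 15 genes higher in KO with the smallest p, at 87.2, 116, 111 and 132 CPM in KO, against 59.9, 69.1, 62.9 and 49.7 CPM in WT. Its lowest KO value was above the highest WT value (0.88 ± 0.14, FDR 0.161).

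Short promoter sequences are shown for list genes whose window holds a box known to bind a regulator of that list. Each is a stretch before the gene start, 5′ to 3′ on the gene's strand, from RefSeq promoters of GRCm38.p6, with the box in capitals, which for C1qc is its reverse complement.
Ctsd (chr7:142387899-142387946, minus strand, CLEAR box core): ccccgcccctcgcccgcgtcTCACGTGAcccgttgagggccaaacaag
Atp6v1a (chr16:44139364-44139411, minus strand, CLEAR box core): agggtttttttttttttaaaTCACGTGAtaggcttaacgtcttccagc
C1qc (chr4:136893082-136893129, minus strand, PU.1 box): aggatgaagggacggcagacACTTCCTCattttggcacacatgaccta
Myl9 (chr2:156775283-156775332, plus strand, CArG box): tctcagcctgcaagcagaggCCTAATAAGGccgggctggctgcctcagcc
The CLEAR core TCACGTGA, the element bound by Tfeb, was searched with its reverse complement, which reads the same, in windows of 250 bases before to 50 bases after each gene start. It was in 3 of 13 lysosomal genes with a promoter in the table (23.1%) and in 304 of 27025 genes overall (1.12%). The PU.1 box GAGGAAGT, a letter string of the myeloid factor PU.1, was in 2 of 14 general macrophage genes (14.3%) and in 3.69% of all genes, searched on both strands. The CArG box, bound by serum response factor with myocardin, was in 1 of 14 contractile genes (7.14%) and in 1.81% of all genes. The third lysosomal match, in Atp6v0d1, and the second PU.1 match, in Ctss, did not lie before the gene start and are not printed. Of the lysosomal genes with a match, Ctsd and Atp6v1a were without overlap between genotypes and Atp6v0d1 overlapped (0.11 ± 0.16). These are letter matches, and the search cannot see sites outside the window. Myl9, the myosin light chain whose box is shown, was at 325, 379, 441 and 429 CPM in KO, against 402, 534, 684 and 438 CPM in WT and overlapped between genotypes (-0.39 ± 0.18, p 0.0585). C1qc was at 287, 442, 433 and 566 CPM in KO, against 194, 285, 259.8 and 198 CPM in WT. Atp6v1a, a pump subunit, was at 422, 526, 454 and 518 CPM in KO, against 254, 418, 336 and 379 CPM in WT, without overlap (0.47 ± 0.16).

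Hmox1 had the smallest p of any gene on a chromosome other than 17. It encodes the enzyme that breaks haem down to biliverdin, iron and carbon monoxide, and it was at 81.8, 88.6, 67.5 and 80.9 CPM in KO, against 41, 39.7, 47.4 and 37.4 CPM in WT. The 4 KO values were close to each other and above all WT values, and did not follow the order of the macrophage genes, with KO 2 highest and KO 3 lowest. The log2 fold change was 0.95 ± 0.11 (FDR 0.0575), and DESeq2 called it. The step after it is carried out by biliverdin reductase, and Blvra was at 32.1, 42.7, 36 and 46 CPM in KO, against 23.4, 30.1, 25.4 and 27.5 CPM in WT, without overlap (0.56 ± 0.13). Of 18 genes of haem, iron and NRF2-driven antioxidant defence, 16 were higher, 12 under p 0.05 and 8 without overlap, with a median of 0.36. Prdx1, a peroxidase, was at 341, 403, 371 and 411 CPM in KO, against 189.5, 266, 262 and 238 CPM in WT (0.68 ± 0.13), and Ftl1, the ferritin light chain, at 519, 804, 648 and 955 CPM in KO, against 402, 509, 459 and 363 CPM in WT (0.76 ± 0.20). Neither gene overlapped between genotypes. The classical NRF2 targets Nqo1 and Gclc did overlap. Nqo1, a quinone reductase, was at 11.7, 10.8, 10.2 and 8.04 CPM in KO, against 5.91, 11.3, 12.8 and 10.7 CPM in WT (-0.01 ± 0.23, p 0.97), and Gclc, of glutathione synthesis, had a log2 fold change of -0.08 ± 0.17 (p 0.63).

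Secreted signals and their receptors were higher in most cases. Of 22 chemokine and receptor genes, 17 were higher and 10 under p 0.05, with a median of 0.45. Ccl6, a chemokine of myeloid cells, had the smallest p of the list and was at 243, 302, 216 and 214 CPM in KO, against 152, 134, 131 and 125 CPM in WT. The genotypes did not overlap (0.85 ± 0.13, FDR 0.137). Ccr2, the receptor through which monocytes enter tissue, was at 104, 121, 126 and 91.3 CPM in KO, against 67.5, 79.6, 86.4 and 54.3 CPM in WT, also without overlap (0.62 ± 0.16). Its ligand gene Ccl2 was at 12, 16.2, 14.2 and 21.1 CPM in KO, against 23.1, 11.6, 11.8 and 8.36 CPM in WT. WT 1 was the highest of the 8 libraries, and the difference was 0.23 ± 0.31 (p 0.48). Of 15 interleukin, adhesion and growth factor genes all were higher, 7 under p 0.05, with a median of 0.34. Il1rn, the natural antagonist of the interleukin 1 receptor, was at 37.4, 60.8, 52.6 and 84.9 CPM in KO, against 24.8, 36.7, 27.2 and 24.8 CPM in WT, and the agonist Il1a at 6.99, 10.5, 10.6 and 15.3 CPM in KO, against 4.34, 6.58, 5.23 and 4.8 CPM in WT. Both lay higher in every KO library (1.05 ± 0.24 and 1.05 ± 0.24), while Tnf did not (0.23 ± 0.33, p 0.513). Of 12 inflammatory macrophage genes, 10 were higher and 6 under p 0.05, with a median of 0.39 that was 0.20 without KO 4. Il1rn stood in this list and in the interleukin list, so these lists are not independent.

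Genes of antigen presentation on MHC class II and of dendritic cells were higher in 11 of 12 cases, 7 under p 0.05 and 6 without overlap, with a median of 0.59. H2-Aa, a class II chain, was at 285, 333, 357 and 346 CPM in KO, against 94.6, 259, 266 and 237 CPM in WT. WT 1 was far below the other WT libraries, and every KO library lay above WT (0.62 ± 0.29, p 0.0575). Without WT 1 the median of the list was 0.38. H2-Aa, H2-Ab1 and H2-Eb1 lie near Pou5f1 on chromosome 17, while Cd74, the chain that accompanies them and lies on another chromosome, was at 506, 557, 578 and 658 CPM in KO, against 222, 449, 458 and 412 CPM in WT (0.58 ± 0.21). Of 15 complement genes 14 were higher and 8 under p 0.05, with a median of 0.42. Properdin, Cfp, which stabilizes the alternative pathway convertase, was at 64.3, 89.1, 79 and 80.1 CPM in KO, against 55.7, 51.1, 48.6 and 51.3 CPM in WT, without overlap (0.60 ± 0.11, FDR 0.166). C3, the central component, had a log2 fold change of 0.27 ± 0.15 (p 0.0951).

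Several matrix metalloproteinase genes were higher in every KO library. Of 18 protease and inhibitor genes, 13 were higher, 8 under p 0.05 and 5 without overlap, with a median of 0.34 that was 0.19 without WT 4. Mmp3, stromelysin, was at 330, 408, 343 and 502 CPM in KO, against 176, 186, 208 and 113 CPM in WT. The lowest KO value was above the highest WT value (1.21 ± 0.20, FDR 0.161). Mmp13, an interstitial collagenase, was at 36.2, 45.3, 41.4 and 114 CPM in KO, against 8.54, 22.1, 28.4 and 14.1 CPM in WT. Its mean rests on KO 4, although the other KO libraries also lay above WT (1.69 ± 0.49). Mmp12, the elastase of macrophages, was at 528, 753, 743 and 1230 CPM in KO, against 242, 510, 422 and 306 CPM in WT, without overlap (1.14 ± 0.30), and Adam8 had a log2 fold change of 0.94 ± 0.20. The inhibitor genes Timp2 (0.20 ± 0.18, p 0.298) and Timp3 (-0.26 ± 0.19, p 0.207) overlapped between genotypes. Ctsk, a collagen-degrading cathepsin, was at 104, 153, 151 and 357 CPM in KO, against 70, 100.2, 92.2 and 72.1 CPM in WT, and KO 4 again stood above the rest, though no KO library lay below a WT library (1.19 ± 0.37).

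Contractile smooth muscle genes were lower in KO lesions. Of 18, 17 were lower, 9 under p 0.05 and 6 without overlap, with a median of -0.42, and between -0.49 and -0.26 with any library left out. Myh11, the smooth muscle myosin heavy chain, was at 1485, 1877, 1802 and 2181 CPM in KO, against 2570, 2820, 3280 and 2462 CPM in WT. All KO libraries lay below all WT libraries (-0.60 ± 0.16, FDR 0.172). Myocd, myocardin, the coactivator of serum response factor, was at 43.5, 50.4, 45.7 and 70.4 CPM in KO, against 79.4, 84, 97.3 and 85.6 CPM in WT, also without overlap (-0.72 ± 0.15). Ppp1r12b, a regulatory subunit of myosin phosphatase, was at 70.8, 82, 76.2 and 101 CPM in KO, against 119, 114, 142 and 118 CPM in WT, without overlap (-0.58 ± 0.12). Acta2 and Tagln did not separate the genotypes. Acta2, smooth muscle actin, was at 1240, 1548, 1816 and 1817 CPM in KO, against 1397, 2158, 2707 and 1816 CPM in WT, or 2193 ± 339 TPM in KO and 3062 ± 796 TPM in WT (SD, n = 4 each). The libraries overlapped, and the log2 fold change was -0.33 ± 0.22 (p 0.163). Tagln, transgelin, was at 613, 777, 999.5 and 941 CPM in KO, against 669.6, 1091, 1379 and 822 CPM in WT, likewise with overlap (-0.25 ± 0.24, p 0.323). KO 1 was the lowest of the 8 libraries for Myh11 and for Acta2.

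Further genes with the smallest p among those lower in KO included several of muscle and ion channels. Kcnma1, the pore of the calcium-activated potassium channel that relaxes vascular muscle, was at 54.6, 45.6, 50.5 and 50.6 CPM in KO, against 70.7, 84.1, 96.6 and 75.1 CPM in WT. The genotypes did not overlap (-0.70 ± 0.11, FDR 0.161). Its accessory subunit Kcnmb1 had a log2 fold change of -0.49 ± 0.19 (p 0.0278). Sost, sclerostin, an inhibitor of Wnt signalling, was at 52.7, 71.3, 66 and 60.5 CPM in KO, against 99.2, 95.1, 131 and 105 CPM in WT, without overlap (-0.78 ± 0.13, FDR 0.161). Mylk4, a kinase of the myosin light chain kinase family, was at 34, 44.7, 35.6 and 50.8 CPM in KO, against 75.7, 73.3, 83.5 and 66.1 CPM in WT, without overlap (-0.85 ± 0.14). Npy1r, the receptor through which neuropeptide Y of sympathetic nerves contracts arteries, was at 25.5, 27.3, 23.6 and 22.2 CPM in KO, against 32.2, 36.3, 42.3 and 40.1 CPM in WT, again lower in each KO library (-0.62 ± 0.11). Plcb4, a phospholipase C, was at 183, 171, 171 and 169 CPM in KO, against 235, 223, 241 and 232 CPM in WT. KO values lay within 169 to 183 and WT values within 223 to 241 CPM, a small but even difference (-0.42 ± 0.08, FDR 0.166). Igsf9b, an adhesion molecule, was at 16.9, 15.5, 14.7 and 18.7 CPM in KO, against 30.6, 25.2, 27.4 and 32.1 CPM in WT, without overlap (-0.81 ± 0.12). Dtna (-0.63 ± 0.11), a dystrophin-associated protein, and Asb2 (-0.55 ± 0.10), a subunit of a ubiquitin ligase of muscle, were also without overlap, as was the secreted guidance ligand gene Slit3 (-0.44 ± 0.10).

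The genes of the modulated smooth muscle list and of the collagen and elastic matrix list all overlapped between genotypes. Outside these lists, the collagen genes Col11a1 (-1.59 ± 0.50) and Col19a1 (-0.93 ± 0.17) were lower in KO without overlap. Of 12 genes of modulated smooth muscle, 10 were higher and none under p 0.05, with a median of 0.26 that was 0.05 without KO 4. Lum, the proteoglycan lumican, was at 702, 902, 1194 and 1392 CPM in KO, against 279, 777, 1009 and 387 CPM in WT. The values overlapped widely, with WT 1 lowest (0.77 ± 0.41, p 0.0943). Of 19 genes of collagens and elastic matrix, 5 were higher, 14 lower and none under p 0.05, with a median of -0.06, which was -0.29 without KO 4 and 0.11 without WT 3. Col1a1, a chain of type I collagen, was at 1151, 1278, 1455 and 2842 CPM in KO, against 1510, 1996, 3132 and 1340 CPM in WT. KO 4 and WT 3 were high and the rest lower, irrespective of genotype (-0.25 ± 0.35, p 0.503). Of 10 cartilage and calcification genes tested, 9 were lower, 3 under p 0.05, with a median of -0.57. Col2a1, the collagen of cartilage, was at 43, 30.3, 251 and 48.4 CPM in KO, against 559, 610.4, 1256 and 117 CPM in WT. It was the most variable of these, with KO 3 above WT 4, and its log2 fold change was -2.77 ± 0.92 (p 0.018). Chad, chondroadherin, was at 2.28, 1.87, 8.35 and 3.09 CPM in KO, against 11.6, 15.7, 20.7 and 6.58 CPM in WT (-1.79 ± 0.52, p 0.00863), with KO 3 above WT 4. Without KO 3 the median of the list was -1.20, and without WT 3 -0.27.

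**Figure D3:**
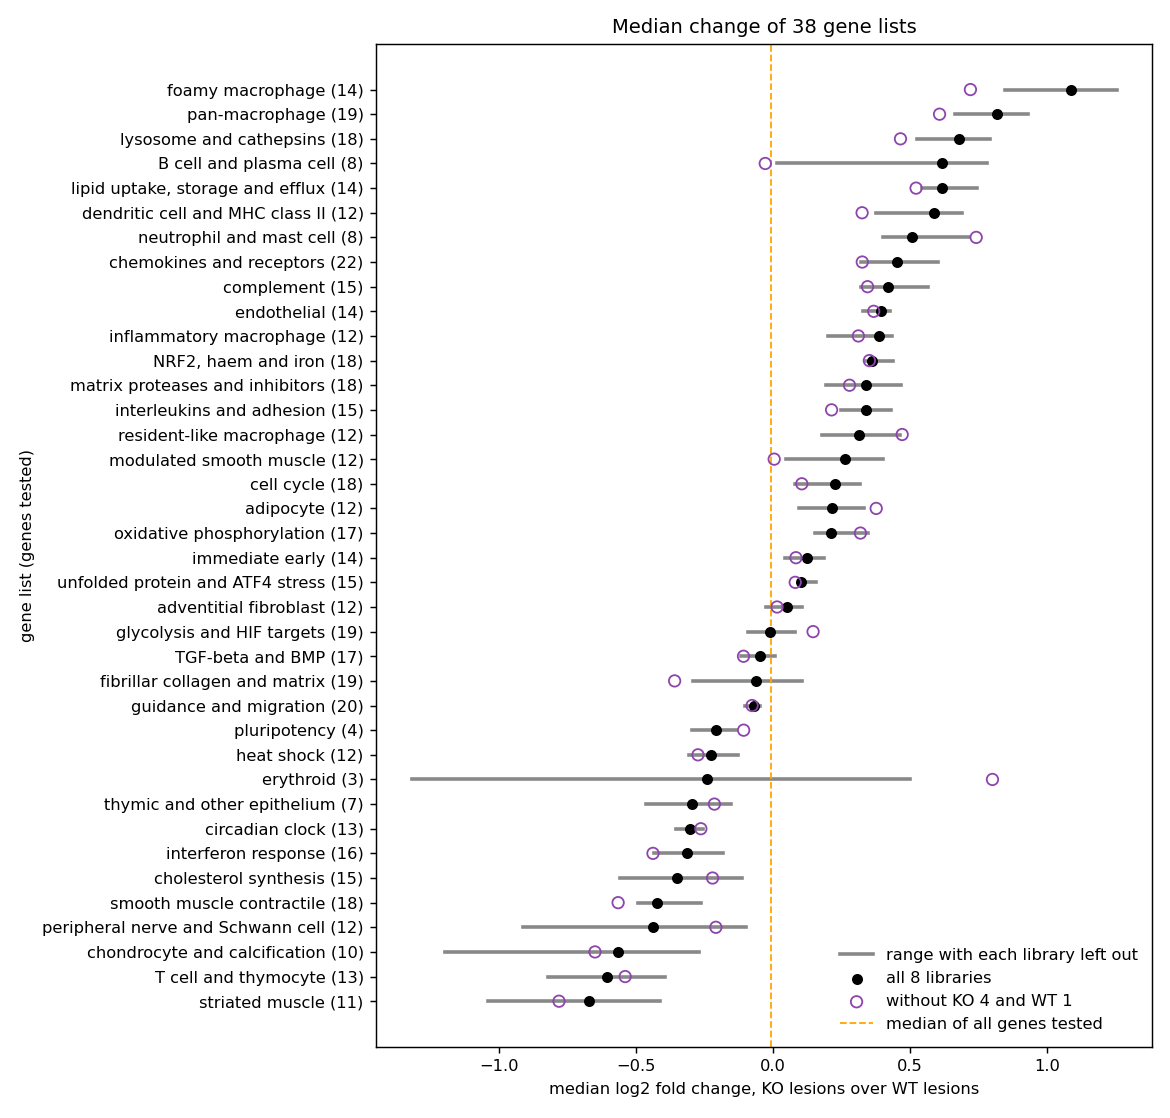
Median log2 fold change of KO over WT lesions (horizontal axis) for each of 38 gene lists (vertical axis, with the number of genes tested), from all 8 libraries (black), without KO 4 and WT 1 (purple ring) and as the range when each library is left out (grey bar). The dashed line marks the median of all genes tested. The foamy macrophage list lies furthest to the right at 1.09, and the erythroid, collagen, TGF-beta, glycolysis and fibroblast lists have bars that cross the line.

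Endothelial genes were higher in 13 of 14 cases, 10 under p 0.05 and 5 without overlap, with a median of 0.39. The list changed little with libraries left out, between 0.33 and 0.43. Tek, the angiopoietin receptor Tie2, was at 103, 118, 125 and 113 CPM in KO, against 95.5, 86.7, 79.7 and 76.9 CPM in WT. Every KO value was above every WT value (0.44 ± 0.10, FDR 0.17). Tie1, its partner, was at 128, 132, 154 and 172 CPM in KO, against 114, 108, 97.8 and 95.4 CPM in WT, without overlap (0.50 ± 0.11), and Vwf, von Willebrand factor, at 581, 634, 664 and 640.5 CPM in KO, against 504, 467, 510.2 and 400.5 CPM in WT, also without overlap (0.42 ± 0.11). Erg, a transcription factor of endothelium, had a log2 fold change of -0.07 ± 0.18 (p 0.727) and overlapped. Ldb2 and Arhgap18, which were among the 15 genes higher in KO with the smallest p and were in no list, were at 20.7, 22.7, 20.9 and 21.6 CPM in KO, against 15.5, 15.7, 15.1 and 13.6 CPM in WT for Ldb2 and 47, 50.7, 59.7 and 62.5 CPM in KO, against 34.8, 38.6, 36.5 and 35.9 CPM in WT for Arhgap18. Both were even within each genotype and without overlap (0.52 ± 0.09 and 0.59 ± 0.11). The labels name epithelial cells among the cell types of the samples. The epithelial list, of which 7 of 12 genes could be tested, summed to 26.1 to 30.9 CPM in KO and 26.7 to 47.2 CPM in WT. The endothelial list summed to 1923 to 2218 CPM in KO and 1480 to 1813 CPM in WT.

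The arteries carried other tissue, and its amount differed between libraries. Th, the enzyme that starts noradrenaline synthesis in sympathetic neurons, was at 384, 232, 179 and 8.66 CPM in KO, against 254, 298, 185 and 433 CPM in WT. KO 4 was nearly without it, and the remaining libraries of both genotypes covered the same range (-0.54 ± 0.84, p 0.536). Other genes of neurons in the nerve list followed: Dbh was at 20.9 CPM, Tubb3 at 26.1 CPM and Gap43 at 5.05 CPM in KO 4. The nerve and Schwann cell list summed to 2886, 1935, 1442 and 236 CPM in KO, against 1432, 2419, 1599 and 3394 CPM in WT. Among the KO libraries the foamy list was highest where the nerve list was lowest (KO 4) and lowest where it was highest (KO 1). Among the WT libraries this order did not hold, as WT 1 had the lowest sum of both lists and WT 2 had the highest foamy sum with the second-highest nerve sum. The part of nerve RNA in the macrophage result was not tested, and without KO 4 the general macrophage median was 0.66. Genes of cholesterol synthesis were lower in 13 of 15 cases and 1 under p 0.05, with a median of -0.35 that was -0.11 without KO 4 and -0.56 without KO 1. Sqle, squalene epoxidase, was at 106, 75, 56.3 and 13.7 CPM in KO, against 52.6, 89.8, 70.4 and 128 CPM in WT, low in KO 4 alone and otherwise overlapping (-0.44 ± 0.56, p 0.448).

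Brown fat, thymus and blood were seen as well. Ucp1, the uncoupling protein of brown adipocytes, was at 1219, 1313, 1279 and 1129 CPM in KO, against 909.9, 692, 556 and 1096 CPM in WT. All KO values were above all WT values, if only just (0.60 ± 0.20, p 0.0143). Of 12 adipocyte genes, 11 were higher and 2 under p 0.05, with a median of 0.21 that was 0.09 without KO 3 and 0.33 without WT 4. Rag1, of developing lymphocytes, was at 4.26, 36.2, 33.1 and 19 CPM in KO, against 86.7, 29.4, 73 and 18 CPM in WT. It was high in WT 1 and WT 3 and low in KO 1 (-1.14 ± 0.69, p 0.137). Of 13 T cell and thymocyte genes 10 were lower, none under p 0.05, and only Il7r, at 54.4, 135, 119 and 201 CPM in KO, against 48.2, 92.1, 54 and 48 CPM in WT, was higher under p 0.05 (1.07 ± 0.40). Il7r ranked the KO libraries in the order of the foamy genes, not of Rag1, and so did Cd22 of the B cell list (0.97 ± 0.33), in which 7 of 8 genes were higher and 2 under p 0.05, with a median of 0.62 that was 0.01 without KO 4 and -0.03 without KO 4 and WT 1. Of 11 striated muscle genes, all were lower and 3 under p 0.05, with a median of -0.67 that was -1.04 without WT 2 and -0.41 without WT 3. Myh6, a cardiac myosin, was at 2.13, 3.75, 0.423 and 2.89 CPM in KO, against 9.72, 7.74, 6.09 and 6.16 CPM in WT, without overlap (-1.68 ± 0.45). Alas2, the erythroid enzyme of haem synthesis, was at 352, 63.2, 129.9 and 62.9 CPM in KO, against 276, 78.7, 149.5 and 81.7 CPM in WT. KO 1 and WT 1 were high, which did not separate the genotypes (0.05 ± 0.67, p 0.941). Of 8 neutrophil and mast cell genes all were higher, 1 under p 0.05, which is near the share of 9.19% over all genes tested.

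Interferon-induced genes were lower in 14 of 16 cases, 5 under p 0.05 and none without overlap, with a median of -0.31. Their summed level was 496.2 to 622.9 CPM in KO and 628.9 to 843.6 CPM in WT, only just without overlap. Isg15, a ubiquitin-like protein, was at 9.88, 6.35, 6.45 and 7.53 CPM in KO, against 14.2, 17, 9.72 and 8.78 CPM in WT. WT 1 and WT 2 were highest, and KO 1 lay above WT 3 and WT 4 (-0.73 ± 0.24, p 0.0138). Usp18, the protease that removes Isg15, was at 11.7, 11.2, 14.9 and 14.3 CPM in KO, against 20.9, 20.4, 14.7 and 21.1 CPM in WT (-0.56 ± 0.15). Without WT 2 the median of the list was -0.18. Heat shock genes were lower in 10 of 12 cases, 6 under p 0.05, with a median of -0.23, and 1 was higher under p 0.05. Hspa1b, an inducible Hsp70 that lies near Pou5f1, was at 36.9, 25.4, 40.6 and 32.6 CPM in KO, against 42.8, 45.7, 62.6 and 85.7 CPM in WT, without overlap (-0.81 ± 0.23). Hspa1a, 0.537 Mb from Pou5f1, was lower as well, with overlap (-0.72 ± 0.24, p 0.0157). Circadian genes were lower in 10 of 13 cases, 6 under p 0.05, with a median of -0.30. Tef, a clock output factor, was at 107, 110.1, 121 and 125 CPM in KO, against 139, 138, 147 and 148 CPM in WT, without overlap (-0.30 ± 0.08). Per2, of the negative arm of the clock, was at 25.1, 25.4, 17.1 and 36.8 CPM in KO, against 56.8, 36.3, 38.2 and 29.7 CPM in WT, with KO 4 inside the range of WT (-0.62 ± 0.26, p 0.039). Arntl, of the positive arm, had a log2 fold change of 0.01 ± 0.13 (p 0.937). The hour at which tissue was taken is not in the labels.

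Several processes showed small or no differences. All 17 genes of oxidative phosphorylation were higher, but 2 under p 0.05, with a median of 0.21 that was 0.35 without WT 4. Ndufa4, a respiratory chain subunit, was at 204, 195, 203 and 154 CPM in KO, against 135, 133, 128 and 195 CPM in WT. KO 4 was low and WT 4 high, so that the genotypes overlapped (0.36 ± 0.15, p 0.046). Of 18 cell cycle genes 16 were higher and 2 under p 0.05, where 9.19% of all genes tested were, with a median of 0.23 that was 0.08 without KO 4. Cdk1, the kinase of mitotic entry, was at 5.32, 6.14, 5.5 and 8.04 CPM in KO, against 4.07, 3.91, 4.06 and 4.39 CPM in WT, without overlap (0.61 ± 0.18), while Mki67 had a log2 fold change of 0.00 ± 0.19 (p 0.993). Glycolysis and HIF target genes had a median of -0.01, whose sign differed between settings, and Car9, a HIF-induced carbonic anhydrase, was at 5.32, 4.48, 4.23 and 5.98 CPM in KO, against 11.3, 6.14, 7.9 and 6.79 CPM in WT, lower in each KO library (-0.68 ± 0.22, p 0.0131). Unfolded protein and ATF4 genes had a median of 0.10, which was 0.16 without KO 2, with 4 of 15 higher under p 0.05. Immediate early genes had a median of 0.13, which was 0.04 without KO 4. Guidance and migration genes had one of -0.07, which was -0.10 without KO 1. TGF-beta and BMP genes had one of -0.05, which was above 0 without KO 1 and -0.12 without KO 4, and adventitial fibroblast genes one of 0.05, which was below 0 without KO 3 and with scaling by total count alone. Of the last list, Pdgfra had a log2 fold change of 0.06 ± 0.09 (p 0.54). Among 12 pluripotency genes, Pou5f1 included, 4 could be tested and none was under p 0.05. Klf4, which smooth muscle cells use as they lose contractile genes, was at 55.2, 55, 61.4 and 66.5 CPM in KO, against 63.6, 55.6, 54.1 and 49.6 CPM in WT (0.10 ± 0.10, p 0.378), with overlap.

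Genes with the smallest p gathered near the gene that was deleted. Pou5f1 lies within the major histocompatibility (H2) region of chromosome 17. That chromosome held 724 of the 14993 genes tested (4.83%), and 12 of the 50 genes with the smallest p, where the next chromosome, 9, had 6. Within 5 Mb of Pou5f1 there were 180 tested genes (1.20%), of which 9 were among the 50. In that window 39 genes (21.7%) were under p 0.05, against 14.7% on other chromosomes, and 27 (15%) did not overlap between genotypes, against 8.62%. Differences ran both ways, with 15 genes higher and 12 lower in KO among the 27. The region and its width were chosen after these values were seen.

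**Figure D4:**
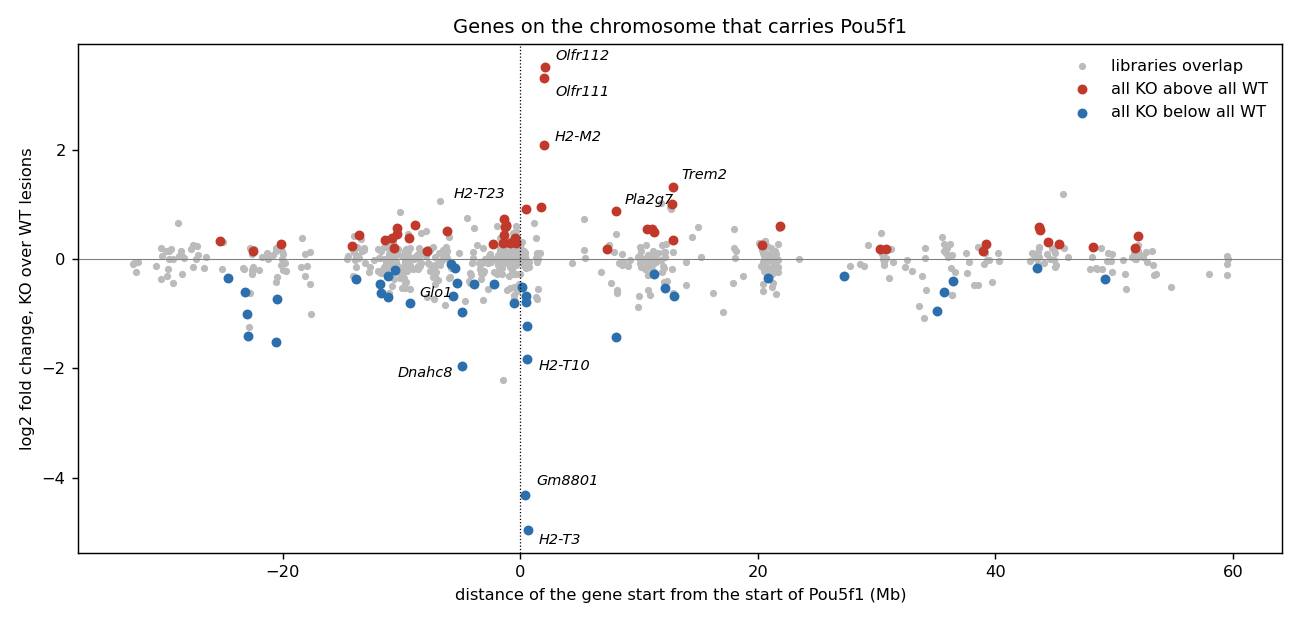
Log2 fold change of KO over WT lesions (vertical axis) for each tested gene on chromosome 17, by distance from the start of Pou5f1 (horizontal axis, Mb), with genes in red where all KO libraries lay above all WT libraries, in blue where all lay below, and in grey where they overlapped. Gm8801 and H2-T3 lie at -4.33 and -4.95, and Olfr111 and Olfr112 at 3.33 and 3.52, all within 2.06 Mb of Pou5f1.

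Near Pou5f1 some genes were almost absent from 1 genotype. Gm8801, 0.441 Mb away, had 2, 2, 0 and 1 counts in KO, against 29, 26, 22 and 39 counts in WT (-4.33 ± 0.52, FDR 0.0575). H2-T3, a nonclassical class I gene of the thymus leukemia antigen family, was at 0.152, 0.104, 0.106 and 0 CPM in KO, against 7.1, 1.33, 2.67 and 1.46 CPM in WT. At so few counts its fitted fold change (-4.95 ± 0.88) is uncertain, but no KO library reached the lowest WT library. H2-T10, of the same region, was at 4.26, 3.85, 6.02 and 6.6 CPM in KO, against 25.6, 15.7, 21.2 and 11.9 CPM in WT, without overlap (-1.83 ± 0.27, FDR 0.133). H2-T23, which encodes the ligand Qa-1 of natural killer cell receptors, ran the other way, at 113, 160.3, 156 and 210.4 CPM in KO, against 67.2, 100.2, 85.1 and 85.7 CPM in WT (0.92 ± 0.19), and its neighbour H2-T24 was lower, at 25.7, 36.3, 37.2 and 48.7 CPM in KO, against 61.4, 79.9, 59.4 and 53 CPM in WT (-0.77 ± 0.19). H2-M2 was at 5.17, 4.17, 4.33 and 8.56 CPM in KO, against 1.05, 1.51, 1.18 and 1.36 CPM in WT, higher in each KO library (2.10 ± 0.29, FDR 0.125). Olfr111 was at 3.19, 4.27, 5.18 and 6.7 CPM in KO, against 0.131, 0.445, 0.747 and 0.522 CPM in WT, and the neighbouring Olfr112 at 2.13, 2.4, 2.64 and 4.33 CPM in KO, against 0.526, 0.178, 0 and 0.313 CPM in WT. These genes differed by 3.33 ± 0.39 and 3.52 ± 0.54. Both are olfactory receptor genes and both were under 1 CPM in every WT library. H2-T, H2-M and Olfr genes have near-identical copies, so the assignment of their reads between copies is uncertain.

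Further genes lay 4.88 to 5.29 Mb away. Dnahc8, a dynein heavy chain of cilia and sperm tails, was at 14.9, 15, 15.5 and 23.3 CPM in KO, against 102, 51.9, 60.3 and 52 CPM in WT. All KO values were below all WT values and WT 1 was the highest (-1.95 ± 0.26, FDR 0.125). It was the single gene that edgeR called when KO 4 and WT 1 were left out (FDR 0.00156). Glo1, which detoxifies methylglyoxal, and Btbd9 were lower too. Glo1 was at 64.8, 49, 50.2 and 37.4 CPM in KO, against 75.3, 112, 82.8 and 121 CPM in WT (-0.96 ± 0.20), and Btbd9 at 40.6, 40.6, 41.5 and 44.8 CPM in KO, against 58.2, 55.4, 55.2 and 58.4 CPM in WT (-0.44 ± 0.08), without overlap in either. Alleles of genes close to a targeted locus are inherited with it, and the labels give no haplotype. The loss of Oct4 and a difference in the alleles of neighbouring genes therefore cannot be told apart for genes of this region by these groups. Trem2, 12.8 Mb from Pou5f1, and Pla2g7, 8.06 Mb from it, are on the same chromosome. Lyz2, Spp1, Gpnmb, Hmox1 and Ccl6 lie on other chromosomes, as do Srgn and Gdf3, also among the 15 genes higher in KO with the smallest p. Srgn, the proteoglycan of secretory granules, was at 68.1, 78.1, 70.1 and 82.9 CPM in KO, against 43.8, 49.5, 54.8 and 44.2 CPM in WT, without overlap (0.64 ± 0.10). Gdf3, a growth factor of the TGF-beta family, was at 13.1, 16.2, 19.3 and 18.1 CPM in KO, against 4.34, 7.47, 9.82 and 5.96 CPM in WT, also without overlap (1.27 ± 0.23).

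**Figure D5:**
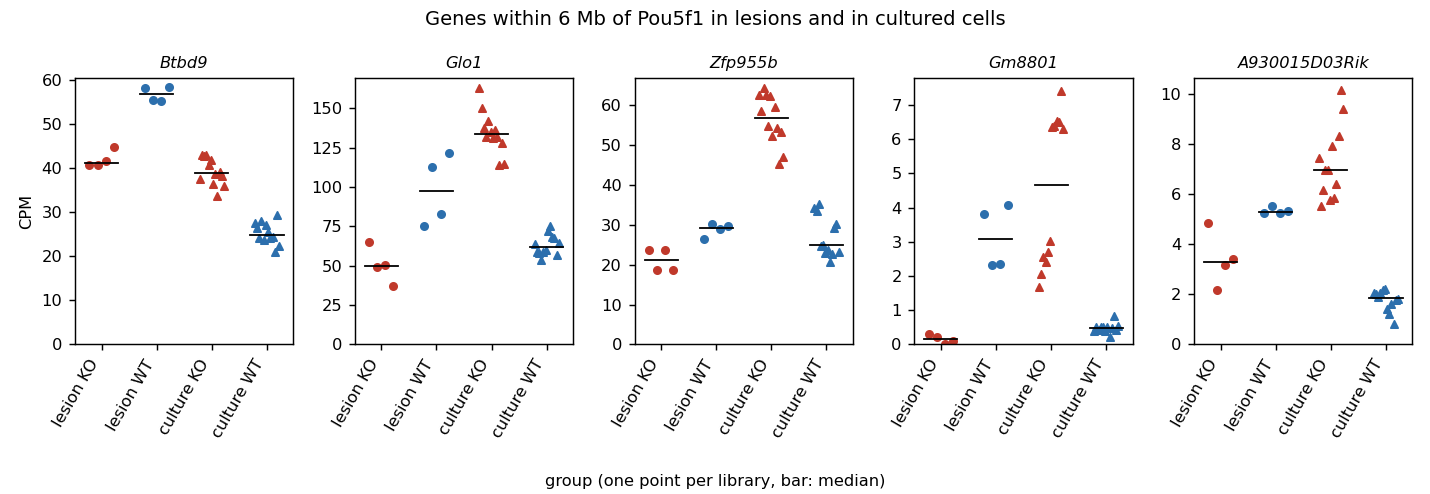
Level in CPM (vertical axis) of 5 of the 6 genes of opposite order within 6 Mb of Pou5f1 in lesion libraries (circles, 4 KO in red and 4 WT in blue) and cultured smooth muscle libraries (triangles, 12 KO and 12 WT), with a bar at the median. Each gene is lower in KO than in WT in lesions without overlap, and higher in KO than in WT in culture without overlap.

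In the cultured smooth muscle cells of the series, 12 libraries a genotype over vehicle or phospholipid treatment and 2 oxygen levels, 6 genes within 6 Mb of Pou5f1 had the opposite order. Gm8801 was at a median of 4.66 CPM (1.69 to 7.41) in 12 KO culture libraries and 0.49 CPM (0.22 to 0.833) in 12 WT culture libraries. Glo1 was at 133 CPM (114 to 163) in KO cultures and 62.0 CPM (53.9 to 74.9) in WT cultures, and Btbd9 at 38.9 CPM (33.7 to 42.9) in KO cultures and 24.9 CPM (21 to 29.2) in WT cultures. Zfp955b, A930015D03Rik and Zfand3 were lower in KO lesions, with log2 fold changes of -0.45 ± 0.11, -0.67 ± 0.23 and -0.17 ± 0.07, and higher in KO cultures. Zfand3 was at 134 CPM (122 to 145) in KO cultures and 86.5 CPM (63.7 to 97.7) in WT cultures. These genes were named after their values were seen. The comparison covered 153 genes within 6 Mb that reached 1 CPM in culture, of which 21 were free of overlap in lesions and 15 in culture (9.8%). Of those 21, these 6 were free of overlap in the opposite direction in culture and 0 in the same direction. Elsewhere in the genome it covered 12033 genes, of which 1056 were free of overlap in lesions and 1503 in culture (12.5%). Of those 1056, 66 had the same direction in culture and 70 the opposite one. The labels do not say from how many animals the cultured cells came, the lesions and the cultures stand in separate tables, and the difference between the settings was not tested. H2-T3, H2-M2, Olfr111 and Olfr112 were at a median of 0 CPM in both culture genotypes.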

How the data were processed

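RNA of the 8 lesion libraries was read from raw counts per gene, which the authors deposited as 1 table; per the file headers they were made with featureCounts 1.4.4 on read pairs, over exons grouped by gene name in UCSC mm9 genes, without strand. The submitters' processing notes also name CASAVA, STAR, Subread and DESeq2, and the mm9 build. Reads mapped to several places or outside exons are not in these counts, so genes with near-identical copies and antisense genes are uncertain. The 24 culture libraries were counted in a table of their own. They were used only for the culture medians of macrophage and lysosomal genes, for the genes near Pou5f1, and for the counts elsewhere in the genome beside those.

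Differences between genotypes were fitted in R 4.3.3 with the edgeR package, version 4.0.16 (filterByExpr with a minimum count of 10, TMM, robust quasi-likelihood fit of genotype on the 8 libraries, Benjamini-Hochberg FDR over 14993 of 23284 genes, threshold 0.05). CPM and TPM were computed from the counts, with exon lengths from the table. Alternatives were DESeq2 1.42.0, limma-voom (limma 3.58.1), other scalings and filters, the replicate number as a block, and leaving out libraries. No label says that replicate numbers pair the genotypes.

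The genes, lists and tests were chosen with earlier results of these data known, so a list's count and median describe it and are not independent evidence. Genes named were the markers, the 15 genes with the smallest p in each direction among genes of at least 1 CPM on average whose symbols are not predicted or unnamed ones, the 10 largest changes in each direction among genes of at least 5 CPM on average, under p 0.05 and without overlap, the 10 highest levels, the first 3 and the 4 of smallest p of each list, and genes of libraries that stood apart. Ddx3y, Abca1, Abcg1, Soat1, Nr1h3, Pparg, Tfeb, Atp6v0d1, Atp6v0d2, Atp6v1a, Atp6v1b2, Ctss, Lgals3, Mertk, Cd163, C3, Gclc, Timp2, Timp3, Kcnmb1, Myl9, Tagln, Erg, Dbh, Tubb3, Gap43, Rag1 and Per2 were added for their role, after their values were seen, as were the genes near Pou5f1 that the text marks or that no list holds (H2-T23, H2-T24). A gene that this rule selects is not reported here.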

Additional observations from a re-analysis of the deposited data

Results flagged for a closer look

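In 16 of 250 groups of 4 libraries (87 genes and 38 lists, each in both genotypes), 1 library stood apart from the other 3 by a gap that passed the critical value of Dixon's test at 95% for a group of 4. In independent groups of normally distributed values, chance alone gives such a gap in about 1 group in 20. The groups here share genes and libraries, and some genes were named because a library stood apart. That rate therefore cannot be set against their count.

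Among KO lesions, KO 4 stood apart with 34.4 CPM of Cd163, 114.5 CPM of Mmp13 and 23.3 CPM of Dnahc8. KO 3 did so with 251 CPM of Col2a1, and KO 1 with 183 CPM of Plcb4. The complement list summed to 6157 CPM in KO 1, below the other KO libraries, and the interferon list to 496 CPM in KO 2, also below.

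Among WT lesions, WT 1 stood apart with 102 CPM of Dnahc8, 94.6 CPM of H2-Aa and 85.5 CPM summed over pluripotency genes. WT 2 had 92.1 CPM of Il7r and 844 CPM of interferon genes, both high. WT 3 had 14.7 CPM of Usp18 and 5434 CPM of lipid genes, both low. WT 4 had 195 CPM of Ndufa4, which was high, and 2804 CPM of haem, iron and NRF2 genes, which was low.

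For 6 genes near Pou5f1 every KO lesion library lay below every WT lesion library while every KO culture library lay above every WT culture library. Their log2 fold changes in lesions were -0.17 for Zfand3, -0.44 for Btbd9, -0.96 for Glo1, -0.45 for Zfp955b, -4.33 for Gm8801 and -0.67 for A930015D03Rik. The difference between lesions and cultures was not tested.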

How the results depend on the processing

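edgeR called 0 genes with all 8 libraries, with RLE factors, library size alone, limma-voom, a mean of at least 5 CPM, no robust estimation, and each library left out in turn. DESeq2 called 441 genes, edgeR without a filter on low counts called 11, and edgeR without KO 4 and WT 1 called 1 (Dnahc8). Genes at an unadjusted p under 0.05 numbered 946 to 1473 higher and 571 to 1329 lower in KO with 1 library left out, the last without KO replicate 4. Scaling by library size alone gave 1391 lower genes and moved the median of all genes to -0.07. The cause of these differences was not tested. With the replicate number as a block, 0 genes were called, and 1006 were higher and 594 lower under p 0.05, with a smallest FDR of 0.38. Deviations of libraries with the same number correlated at -0.271, 0.121, 0.0735 and -0.666. These values differ in sign and carry the differences in other tissue between libraries, so they cannot decide whether the numbers pair the libraries. With 4 libraries a genotype and 6526099 to 11137414 counts each, the number of libraries and the counts of low genes limit what could be detected.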

Other observations

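A few genes were either present or nearly absent between libraries of the same genotype. Gbp1, an interferon-induced guanylate-binding protein, was at 18.5, 0.833, 10.2 and 15.98 CPM in KO, against 0.657, 0.89, 26.1 and 0.94 CPM in WT. Ifi202b, of the interferon-inducible p200 family, was at 16.3, 1.15, 0.528 and 5.15 CPM in KO, against 4.47, 0.712, 13.4 and 1.15 CPM in WT. Each gene was high in libraries of both genotypes and low in others of both.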
